A study of Mus musculus with 25 samples.

Results

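10 T cell genes were followed through sorted macrophage libraries of mouse glioblastoma, an aggressive brain tumour. The members were Cd3d, Cd3e, Cd3g, Cd5, Cd6, Cd4, Tcf7, Lef1, Bcl11b and Icos, that is 10 of the 30749 genes of the table. They were chosen by name, and the choice was made from their measured levels by tumour type, model and cell type, so those levels and the differences between those groups are given as a description without a test. Libraries came from 2 sorted cell types: monocyte-derived macrophages (MDM), recruited out of the circulation, and microglia, which settle in the brain during development. The tumours carry the label type 1 or type 2 and the model spontaneous or transplanted. The microglia groups held 3 libraries each. The MDM groups held 2 libraries of type 1 spontaneous, 4 of type 1 transplanted, 1 of type 2 spontaneous and 2 of type 2 transplanted tumours. Microglia of 4 normal brains were not analysed here, so each group comes from a tumour and no tumour-free background is given. Labels give no mouse strain, age, allele, tumour cell of origin, sort gate or pooling, and none says whether replicate libraries are separate animals. The p-values below therefore reflect only the scatter among the libraries at hand, some of which may be technical. Library numbers follow the short sample names in the description field, since titles number some libraries differently.

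T cells recognise antigen with a receptor whose variable chains carry almost no signalling part of their own. The CD3 chains, encoded by Cd3d, Cd3e and Cd3g, pair beside the receptor and carry its signal inward, which makes them the defining transcripts of the lineage. CD4 is a coreceptor that binds MHC class II on the presenting cell, CD5 and CD6 restrain receptor signalling, and ICOS is a costimulatory receptor that appears on activation. TCF-1 (Tcf7), LEF-1 (Lef1) and BCL11B are transcription factors of T cell development and of the resting or memory state. Several of these genes are also read outside T cells: Cd5 in some B cells, Cd4 in some dendritic cells and monocytes, Tcf7 and Icos in innate lymphoid cells. Macrophages and microglia are not known for CD3 expression. In bulk RNA, fewer T cells and less T cell RNA per cell cannot be told apart.

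The CD3 genes lie side by side, and the bases upstream of their starts are shown as a description. Whether these bases bear on the levels that follow was not tested. On chromosome 9 of GRCm38, Cd3g runs from 44969572 to 44980431 on the minus strand, Cd3d from 44981786 to 44987339 on the plus strand and Cd3e from 44998740 to 45009627 on the minus strand. Cd3g and Cd3d face away from each other, with starts 1355 bases apart in the GENCODE annotation. The upstream bases are from RefSeq on GRCm38.p6, in the direction of the gene, at chr9:44981536-44981768 for Cd3d, chr9:45009664-45009861 for Cd3e and chr9:44980432-44980681 for Cd3g. Capitals mark matches to CACCTG (an E box, bound by basic helix-loop-helix factors), ACTTCC (the reverse complement of the ETS motif GGAAGT) and ATCAAAG (the reverse complement of the TCF/LEF motif CTTTGAT).
Cd3d: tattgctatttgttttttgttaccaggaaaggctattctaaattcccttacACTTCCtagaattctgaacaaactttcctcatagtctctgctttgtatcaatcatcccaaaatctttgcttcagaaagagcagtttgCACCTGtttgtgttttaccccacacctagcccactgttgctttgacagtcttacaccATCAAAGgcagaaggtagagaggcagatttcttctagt
Cd3e: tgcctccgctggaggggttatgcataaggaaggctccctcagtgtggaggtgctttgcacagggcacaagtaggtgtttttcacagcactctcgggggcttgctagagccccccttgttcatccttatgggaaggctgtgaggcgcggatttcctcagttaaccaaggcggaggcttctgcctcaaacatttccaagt
Cd3g: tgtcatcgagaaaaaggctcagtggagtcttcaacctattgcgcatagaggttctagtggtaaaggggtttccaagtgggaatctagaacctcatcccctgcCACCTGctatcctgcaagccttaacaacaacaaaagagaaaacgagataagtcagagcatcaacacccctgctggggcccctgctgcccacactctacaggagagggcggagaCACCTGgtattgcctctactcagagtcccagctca
Cd3d held 1 match to each of the E box, ETS and TCF/LEF motifs, Cd3g held 2 E boxes, and the Cd3e stretch shown held none of the searched motifs. The longer promoter window of Cd3e, counted below, did hold ETS and E box matches, which were not within the stretch shown. The search covered both strands with these 3 motifs and the RUNX motif TGTGGT, which were chosen after the sequences had been seen. Of the 10 members, 7 had a RefSeq promoter window of 300 bases, which runs 50 bases past the start, and Lef1 and Tcf7 had more than 1, which made 11 windows. Of these 11 windows, 6 held GGAAGT, 6 held CACCTG, 1 held CTTTGAT and TGTGGT was in 0 of them. Among all 32851 windows the shares were 23.8% for GGAAGT, 20.2% for CACCTG, 3.7% for CTTTGAT and 16.8% for TGTGGT. Such matches describe letters in a window and name no bound factor.

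Recovered library depth was 26530069 to 50365607 reads, with 16297 to 21435 genes detected. Levels are normalised read counts, scaled by the authors for library depth, with the number of libraries in each group given above. The sorted cell types carried their own markers: the 6 microglia markers summed to 450793 to 974482 in microglia libraries and to 6359 to 161470 in MDM libraries, and the 6 MDM markers to 506.2 to 15021 and 35979 to 220582. Microglia markers nevertheless exceeded MDM markers within type 1 spontaneous MDM 1 (159678 against 52924) and type 2 spontaneous MDM 3 (112124 against 47650). Some libraries stood apart and are named here because the results rest on them. Type 1 transplanted MDM had the lowest summed microglia markers of all MDM libraries, at 6359 to 13231, and the lowest summed markers of conventional dendritic cells, at 3854 to 8905 against 9900.0 to 42840 elsewhere in MDM. Among microglia, type 1 transplanted libraries 1 and 2 carried more T cell and natural killer (NK) transcripts than the other 10.

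Every CD3 gene was most abundant in the 4 type 1 transplanted MDM libraries. Cd3e was at 11984, 16689, 27570.1 and 12546 normalised counts in type 1 transplanted MDM 1 to 4. It was at 1785 and 1510 in type 1 spontaneous MDM, at 524.4 and 790.4 in type 2 transplanted MDM and at 40.7 in the type 2 spontaneous MDM library. All 4 type 1 transplanted libraries thus lay above the 5 other MDM libraries. Cd3d was at 11088, 7782, 9309 and 5996 in type 1 transplanted MDM. In the other MDM libraries it was at 376.2 and 405.9 (type 1 spontaneous), 772.2 and 283.0 (type 2 transplanted) and 86.8 (type 2 spontaneous). Cd3g was at 16531, 10455, 15043 and 8317 in type 1 transplanted MDM and at 714.1 and 655.6, 1256 and 548.4, and 72.9 in the other classes in that order. For Cd3e both type 1 spontaneous libraries lay above both type 2 transplanted ones, while for Cd3d and Cd3g these classes overlapped. The 3 chains summed to 38328 ± 10481 (SD, n = 4) in type 1 transplanted MDM, 2724 ± 214.6 (n = 2) in type 1 spontaneous MDM, 2087 ± 658.3 (n = 2) in type 2 transplanted MDM and 200.5 in the only type 2 spontaneous MDM library, where they rested on 187 reads.

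The balance between the 3 chains was not the same in every library. Cd3e supplied 62.1% and 58.7% of the CD3 sum in type 1 spontaneous MDM and 30.3% to 53.1% in type 1 transplanted MDM. It supplied 20.5% and 48.7% in the pair of type 2 transplanted libraries and 20.3% in the type 2 spontaneous one. Cd3d, by contrast, ranged from 13.1% in a type 1 spontaneous library to 43.3% in the type 2 spontaneous library. Counted per kilobase of exon, which allows genes to be compared, Cd3g was at 12304 ± 3759 and Cd3e at 11763 ± 4943 in type 1 transplanted MDM (SD, n = 4), a difference within their spread. Cd3d followed at 5284 ± 1342 per kilobase.

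**Figure D1:**
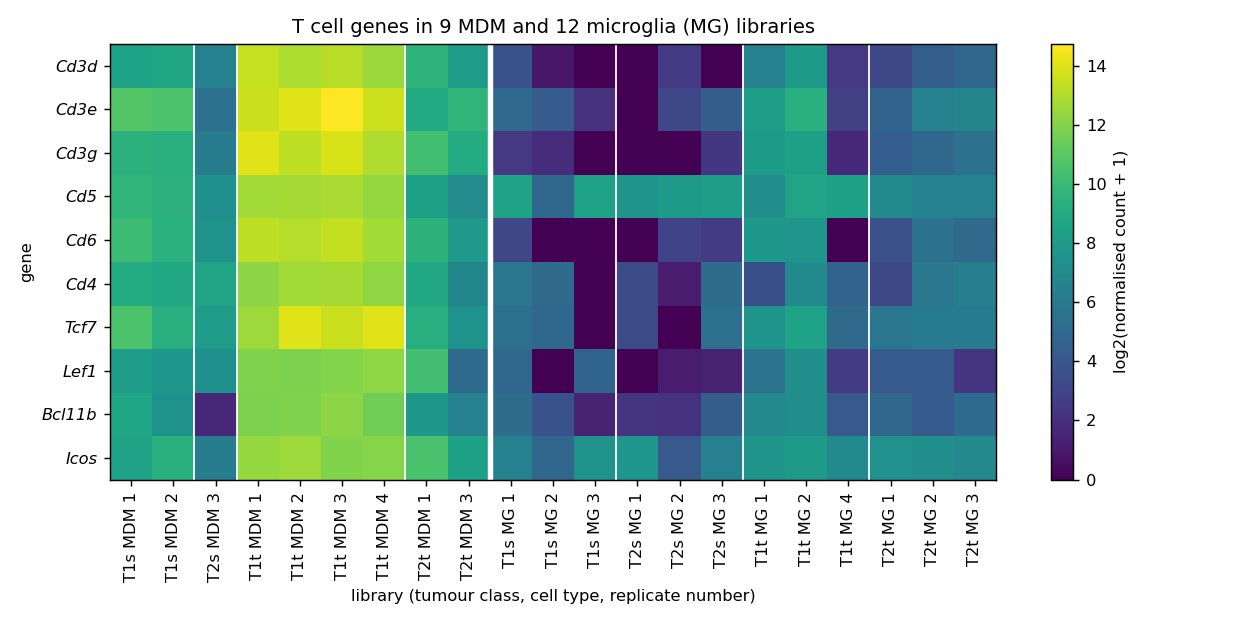
Each column is a library, each row a member, and the colour is log2(normalised count + 1); thin white lines part the tumour classes and the thick line parts MDM from microglia (MG). The 4 type 1 transplanted MDM columns (T1t MDM) are the brightest in all 10 rows, with Cd3e at up to 27570.1, and Cd5 and Icos stay coloured across the microglia columns. The members were chosen from these levels, and the share of all genes with that order is not given here.

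Microglia libraries held few CD3 reads. The CD3 sum had a median of 36.0 over the 12 libraries, with a lowest value of 0 and a highest of 1258. Type 1 transplanted microglia 2 (1258) and 1 (662.2) were the top libraries, while the third of that class, numbered 4, was at 12.7. The 3 type 2 transplanted microglia libraries were at 54.1, 140.1 and 176.5, and the 6 spontaneous ones at 0 to 48.0. Type 2 spontaneous microglia 1 had 0 reads of all 3 chains, which allows up to 3.89 normalised counts (3 reads, counting error only). NK marker genes were also highest in type 1 transplanted microglia 1 and 2, at a sum of 1262 and 1742 against 109.0 to 587.0 in the other 10, whose part in the CD3 values was not tested. Cd3e in those libraries was at 312.1 and 658.0, above the 40.7 of the lowest MDM library, so the cell types overlapped. In all, 2 microglia libraries lay above the lowest MDM library for Cd3d and Cd3g and 4 did for Cd3e.

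Set against the MDM library of the same label number, microglia carried 0.0472% to 11.9% of its CD3 sum over 8 such pairs. The lowest share was in type 1 transplanted tumour 4 (12.7 against 26859), the highest in type 2 spontaneous tumour 3 (23.9 against 200.5). The labels do not state that libraries of 1 number come from 1 tumour.

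CD5 and CD6 are related scavenger receptors encoded 50339 bases apart on chromosome 19 (Cd5 at 10717116 to 10739002 and Cd6 at 10789341 to 10830058, both on the minus strand). Like CD3, both were highest in type 1 transplanted MDM, though not in a constant proportion to it. From type 2 transplanted MDM 3 to type 2 spontaneous MDM 3, Cd5 went from 8.51% to 85.6% of CD3 and Cd6 from 15.6% to 92.5%. Cd6 was at 10279.9, 8828, 10699 and 6718 in type 1 transplanted MDM, at 1125 and 676.5 in type 1 spontaneous, at 735.3 and 253.3 in type 2 transplanted and at 185.5 in type 2 spontaneous MDM. Cd5 was at 6716, 7064, 7568 and 5566 in type 1 transplanted MDM, at 847.7 and 699.9, 332.5 and 138.0, and 171.5 in the same order of classes. The neighbours parted in microglia. Cd6 had 0 reads in 4 of the 12 microglia libraries, a median of 7.37 and a highest value of 234.9. Cd5 was detected in all 12, from 30.8 to 396.8 with a median of 231.4, and 8 of the 12 exceeded the lowest MDM library. In type 1 spontaneous microglia 3, the 3 type 2 spontaneous libraries and type 1 transplanted microglia 4, where the CD3 sum was at most 23.9, Cd5 was at 198.5 to 367.5. Type 1 spontaneous microglia 2, with a CD3 sum of 22.4, held the lowest Cd5 level, at 30.8. Summed B cell markers were at 558.0 to 2687 in microglia, where 1 of the 8 was above 0 in every library. Their part in the Cd5 level was not tested.

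Cd4 was at 4697, 6785, 6939 and 5092 in type 1 transplanted MDM. It was at 544.0 and 455.3 in type 1 spontaneous MDM, at 442.1 and 106.5 in type 2 transplanted MDM and at 390.2 in the type 2 spontaneous library. That last library had more Cd4 than CD3: Cd4 was 194.7% of its CD3 sum, against 6.57% to 19.4% in the 8 other MDM libraries. Tcf7 (135.3% of CD3), Cd6 (92.5%), Cd5 (85.6%) and Lef1 (84.0%) were also at their highest share there, and Bcl11b at its lowest (1.07%). Microglia ranged from 0 to 125.5 for Cd4, with a median of 28.7. Only type 1 transplanted microglia 2, at that highest value, exceeded the lowest MDM library.

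The 3 transcription factors were less alike. Tcf7 was at 6054, 16830, 12382 and 16600.5 in type 1 transplanted MDM. Elsewhere in MDM it was at 1497 and 627.0 (type 1 spontaneous), 640.0 and 187.8 (type 2 transplanted) and 271.2 (type 2 spontaneous). Its share of CD3 spread from 15.3% in type 1 transplanted MDM 1 to 61.8% in MDM 4 of the same class. Lef1, a close relative of Tcf7, was at 3882, 3629, 4130 and 4827 in type 1 transplanted MDM, a narrower spread than that of Tcf7. The type 2 transplanted pair differed most for this gene, at 1289 in library 1 and 34.1 in library 3, or 50.5% and 2.10% of CD3. Type 1 spontaneous MDM was at 272.8 and 212.0 and type 2 spontaneous MDM at 168.3. Bcl11b, which fixes T cell identity during development, was at 3650, 3763, 4598 and 3027 in type 1 transplanted MDM and at 414.5 and 193.8 in type 1 spontaneous MDM. It was at 236.0 and 92.6 in type 2 transplanted MDM and at 2.14 (2 reads) in type 2 spontaneous MDM. Its share of CD3 was 5.71% to 14.4% in every MDM library but that last one. In microglia the medians were 42.2 for Tcf7, 11.2 for Lef1 and 18.2 for Bcl11b, and type 1 transplanted 2 held the highest value of all 3.

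Icos was at 5464, 6228, 3937 and 4351 in type 1 transplanted MDM and at 364.8 and 655.6 in type 1 spontaneous MDM. Type 2 transplanted MDM 1 was higher than either spontaneous library, at 1473, and its partner MDM 3 was at 345.0. The type 2 spontaneous MDM library was at 75.0. In that first type 2 transplanted library Icos was 57.7% of CD3, the highest share among MDM, where the others ranged from 7.58% to 37.4%. Like Cd5, Icos was detected in all 12 microglia libraries, from 16.2 to 258.2 with a median of 144.9. In all, 10 microglia libraries exceeded the lowest MDM library. Markers of type 2 innate lymphoid cells, which also carry Icos, summed to 73.9 to 388.5 in microglia and 81.2 to 917.8 in MDM, and 1 of the 5 was above 0 in every microglia library. Whether they bear on Icos was not tested.

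**Figure D2:**
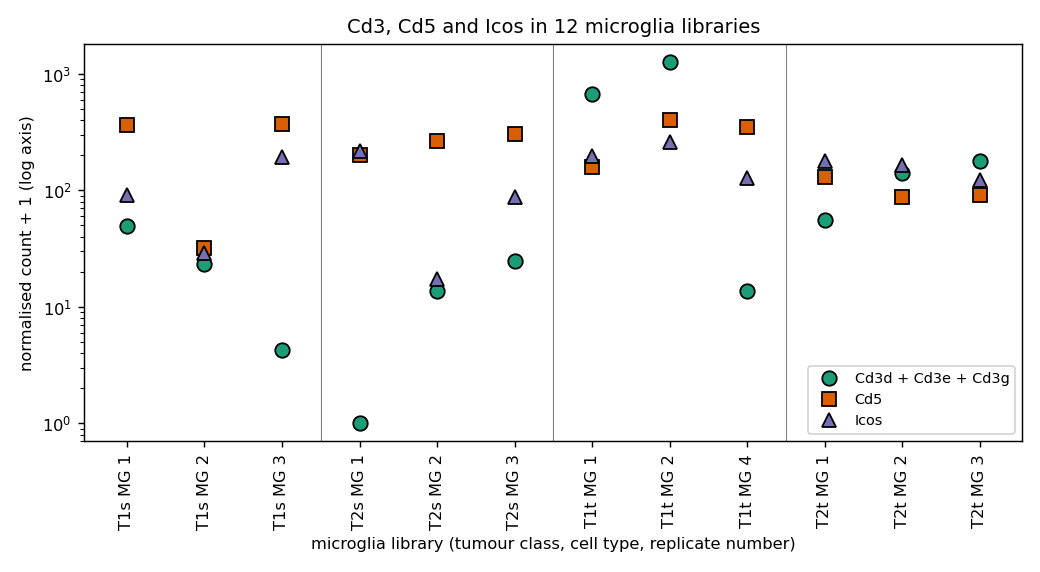
Normalised count + 1 on a log axis in each of the 12 microglia libraries, by tumour class and label number, for summed CD3 genes (circles), Cd5 (squares) and Icos (triangles). Cd5 (30.8 to 396.8) and Icos (16.2 to 258.2) were present in every library, while the CD3 sum ran from 0 to 1258 and was highest in T1t MG 2.

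Per kilobase of exon, type 1 transplanted MDM showed the order Cd3g, Cd3e, Cd3d, Tcf7, Cd6, Cd5, Cd4, Icos, Lef1 and Bcl11b, from 12304 ± 3759 to 463.5 ± 79.7 (SD, n = 4). Neighbours whose SDs overlapped were Cd3g and Cd3e, Cd3d (5284 ± 1342) and Tcf7 (4940 ± 1921), Tcf7 and Cd6 (3012 ± 592.8), Cd6 and Cd5 (2154 ± 272.2), Cd5 and Cd4 (1891 ± 369.7), Cd4 and Icos (1456 ± 304.6), and Icos and Lef1 (1174 ± 147.2). In the type 2 spontaneous library the order began with Cd4 (125.5 per kilobase) and Tcf7 (103.3), and Cd3e was eighth at 27.9. Bcl11b was last in all 4 MDM classes on this scale.

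Other lineages of lymphocytes were read in the same MDM libraries. NK markers, 10 of 10 of which were above 0 in every MDM library, summed to 73439 to 107154 in type 1 transplanted MDM. Their highest sum was in type 2 transplanted MDM 1, at 210483, where the CD3 sum was only 2553. In the rest they summed to 22379 (type 2 transplanted 3), 28642 (type 2 spontaneous 3), and 3638 and 15427 (type 1 spontaneous). The ratio of NK markers to CD3 was therefore not constant: 126.5% to 599.8% in type 1 MDM and 1379.9%, 8246% and 14288% in type 2 MDM. Summed B cell markers were at 18369 to 43280.3 in type 1 transplanted MDM, 23732 in type 2 transplanted MDM 1 and 650.4 to 3582 in the 4 other MDM libraries. Gamma-delta T cell markers reached 207.0 to 778.6 in type 1 transplanted MDM and 0 to 134.4 elsewhere in MDM, from the 3 of 6 listed genes analysed here.

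**Figure D3:**
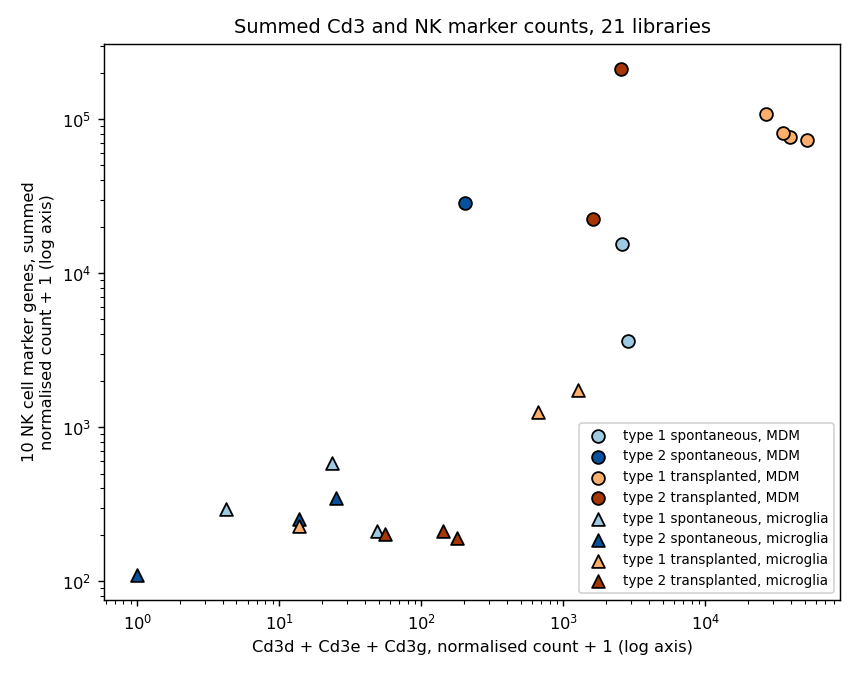
Summed CD3 genes against summed NK cell markers, both as normalised count + 1 on log axes, for 9 MDM (circles) and 12 microglia (triangles) libraries, coloured by tumour class. Type 2 transplanted MDM 1 has the highest NK sum (210483) with a CD3 sum of 2553, while type 1 transplanted MDM lies furthest right (26859 to 51922).

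Composition was compared as log2 ratios to the CD3 sum between 6 transplanted and 3 spontaneous MDM libraries. Since the CD3 genes are members, all 5 ratios are a description without a test. The Cd4 ratio was -2.86 ± 0.59 (SD, n = 6) in transplanted and -1.31 ± 1.97 (n = 3) in spontaneous MDM, and the difference of -1.55 was -0.42 without the type 2 spontaneous library. The CD8 ratio (Cd8a + Cd8b1, the coreceptor of cytotoxic T cells) was -1.03 ± 0.51 and -0.84 ± 0.33, a difference of -0.19. Foxp3, which marks regulatory T cells, was at -3.76 ± 2.7 and -3.50 ± 0.68 (difference -0.26). NK markers were at 2.47 ± 2.23 and 3.36 ± 3.47 (difference -0.89) and B cell markers at 0.34 ± 1.54 and 0.59 ± 3.19 (difference -0.25). The Foxp3 difference was 0.03 without type 1 spontaneous MDM 2 and 0.83 without type 2 transplanted MDM 3. Without the type 2 spontaneous library the NK difference was 1.01 and the B cell one 1.54, and the latter was 0.06 without type 1 transplanted MDM 3. The direction of the NK ratio thus turned with 1 library, and that of the Foxp3 and B cell ratios with either of 2.

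CD8 transcripts kept closest to CD3. The CD8 sum was 29.2% to 50% of CD3 in type 1 transplanted MDM, 45.0% and 54.7% in type 1 spontaneous MDM and 71.1% to 73.9% in the 3 type 2 MDM libraries. Foxp3 was 9.94% to 19.0% of CD3 in the 6 type 1 MDM libraries, 24.5% in type 2 transplanted MDM 1, 4.81% in type 2 spontaneous MDM and 0.108% in type 2 transplanted MDM 3, where it rested on 1.75 normalised counts.

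**Figure D4:**
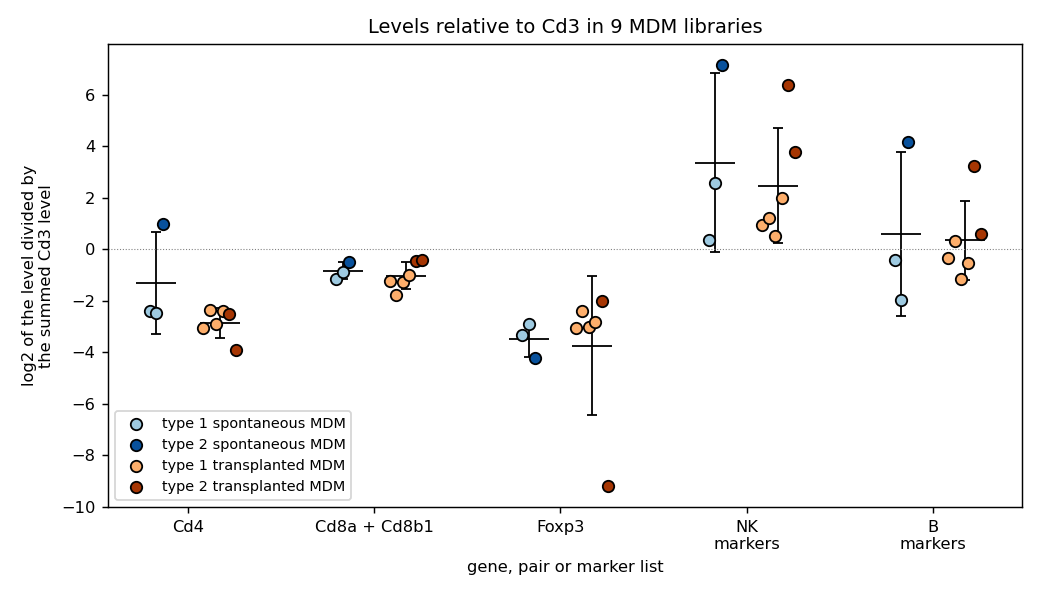
Log2 of a level divided by the summed CD3 level in each of 9 MDM libraries, with spontaneous libraries left and transplanted ones right in each pair; bars are the mean and its SD. CD8 stays between 29.2% and 73.9% of CD3, while the type 2 spontaneous library is high for Cd4, NK and B cell markers and type 2 transplanted MDM 3 is low for Foxp3.

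In the fit over all genes, members were higher in MDM than in microglia by a log2 difference of 1.84 ± 0.38 (SE) for Cd5 to 6.58 ± 0.86 for Cd6, given without a test. The CD3 genes differed by 6.18 ± 0.66 (Cd3d), 5.07 ± 0.75 (Cd3e) and 6.40 ± 0.71 (Cd3g). Tcf7 (5.13 ± 0.75), Cd4 (5.2 ± 0.75) and Lef1 (5.55 ± 0.78) lay close to them, and Icos (2.43 ± 0.44) and Bcl11b (2.91 ± 0.54) lay lower. These differences weight the 4 tumour classes equally on the log2(normalised count + 1) scale, so they are not ratios of pooled means. The median over 17216 tested genes was 0.07, and 0.29 when libraries were rescaled to the same total. The number of the 12 microglia libraries above the lowest MDM library ran from 1 for Cd4 to 11 for Bcl11b. No such count over all genes is given here.

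Genes of the T cell programme outside the members were mostly higher in MDM too. Of 84 listed genes 73 were tested. In MDM against microglia 65 rose and 4 fell at an adjusted p under 0.05 (limma-trend, Benjamini-Hochberg), where 42.7% of all tested genes were called, 23.0% higher and 19.8% lower. The counts were 65 and 3 with libraries rescaled to the same total and 65 and 4 after quantile normalization. The receptor list rose in 3 of 3 tested genes: Cd247, the zeta chain of the receptor complex, by 6.78 ± 0.88 (adjusted p = 5.6e-06), Cd8a by 6.38 ± 0.67 (4.9e-07) and Cd8b1 by 6.19 ± 0.75 (2.7e-06). The 7 receptor constant genes of that list were not analysed here. Signalling genes rose in 19 of 20, among them the adaptor Sh2d2a (8.26 ± 0.63, adjusted p = 2.1e-08), the Ras activator Rasgrp1 (7.38 ± 0.45, 4.1e-09), the phosphatase-like Ubash3a (6.65 ± 0.53, 2.9e-08) and the phosphatase Ptpn22 (5.02 ± 0.34, 8e-09). The exception was Lcp2, an adaptor also used by myeloid cells, at -0.11 ± 0.17.

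Costimulation and checkpoint genes split. Of 16 genes 13 rose, led by Il2rb, a receptor chain for IL-2 and IL-15 that NK cells share (8.37 ± 0.78, adjusted p = 1.4e-07), Tigit (6.48 ± 0.67, 4.3e-07) and Tnfrsf18 (6.29 ± 0.61, 2.2e-07). Lag3, Havcr2 and Pdcd1, the latter 2 chosen after their values were seen, were called lower in MDM. Lag3 averaged 9875 ± 4784 in microglia (SD, n = 12) and 869.0 ± 569.2 in MDM (n = 9), a log2 difference of -3.57 ± 0.31 (adjusted p = 6.4e-08). Havcr2, which encodes TIM-3, differed by -1.15 ± 0.21 (0.00018), and Pdcd1, which encodes PD-1, by -0.72 ± 0.22 (0.013). Lag3 was at 6236 or more in each of the 6 spontaneous microglia libraries, where the CD3 sum was at most 48.0. For Pdcd1 the direction came from the log scale with equal weight for each class: its mean was 3991 ± 2321 in microglia and 4051 ± 3514 in MDM, with 5653 ± 1420.5 against 1881 ± 751.0 in spontaneous and 2329 ± 1791 against 5136 ± 3911 in transplanted tumours. Its difference was -0.27 without type 2 spontaneous MDM 3 (adjusted p = 0.38) and -0.48 with libraries rescaled to 1 total (0.093).

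Transcription factors rose in 12 of 15 tested. Tbx21 and Eomes, which NK cells also use, rose by 7.61 ± 0.64 (adjusted p = 5e-08) and 7.34 ± 0.68 (1.3e-07), Gata3 by 6.84 ± 0.61 (9.1e-08) and Id3 by 4.69 ± 0.38 (3.7e-08). Maf, chosen after its values were seen, fell by 2.14 on the log2 scale (± 0.30, adjusted p = 1.2e-05), and Ikzf2, at -0.31 ± 0.36, did not pass. Among naive-state and homing genes 10 of 11 rose. Ccr7, a receptor for homing to lymph nodes, rose by 6.24 ± 0.76 (adjusted p = 2.7e-06), Cxcr3 by 5.99 ± 0.78 (6.2e-06) and Itgae by 3.55 ± 0.47 (8.1e-06). S1pr1, the receptor for egress from lymph nodes, was at -0.48 ± 0.21 (adjusted p = 0.071). The list of cytokine genes and Fas ligand held 12 genes, of which 8 passed the level filter and were tested, and all 8 rose. A gene silent in microglia can pass that filter only through MDM libraries, so this share is partly set by the filter. Fasl was at 8.0 ± 0.61 (2.1e-08), Ifng at 5.94 ± 0.87 (2.1e-05), Il10 at 4.95 ± 0.75 (3e-05) and Csf2 at 3.62 ± 0.49 (8.3e-06). NK markers rose in 10 of 10 and B cell markers in 7 of 8 in the same comparison, and their part in the T cell lists was not tested.

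**Figure D5:**
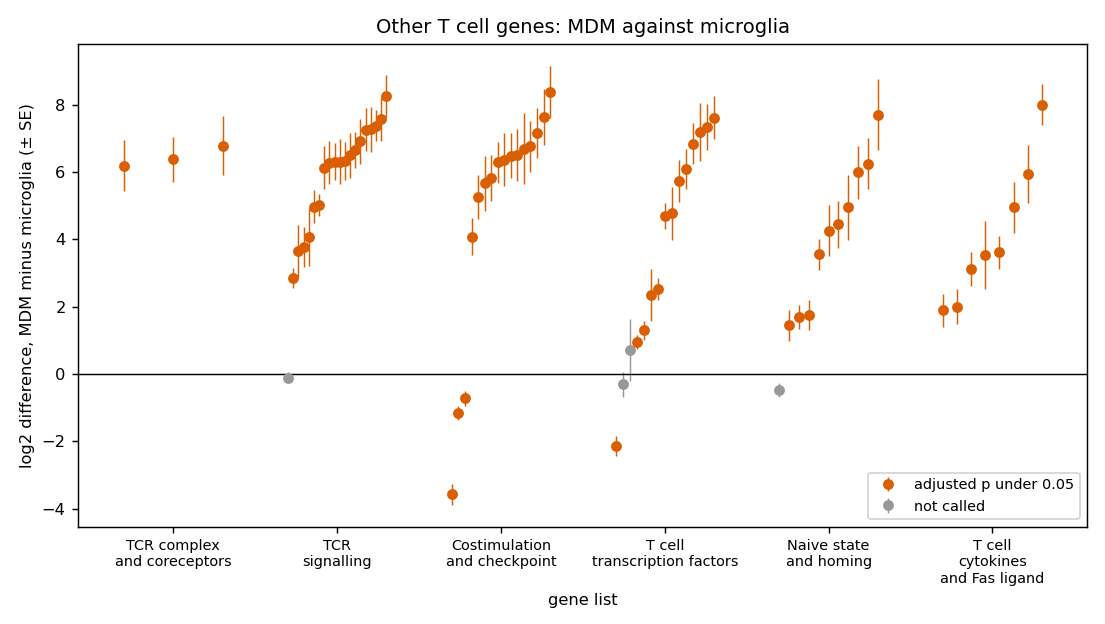
Log2 difference of MDM minus microglia with its SE for the 73 tested T cell genes that are not members, by list; orange points passed an adjusted p under 0.05. Most lie between 2 and 8, and 4 orange points lie below 0: Lag3 (-3.57), Maf (-2.14), Havcr2 (-1.15) and Pdcd1 (-0.72).

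By tumour model, members were higher in transplanted than in spontaneous MDM by 1.35 ± 1.19 (Cd4) to 4.64 ± 0.85 (Bcl11b) on the log2 scale, as the mean of the difference in each tumour type and without a test. The Bcl11b value ran from 3.19 to 5.57 over the alternatives, and its type 2 spontaneous level rested on 2 reads. Cd3d was higher by 3.41 ± 1.05, Cd3e by 3.63 ± 1.18, Cd3g by 3.82 ± 1.13 and Icos by 3.28 ± 0.70. Cd5 (1.72 ± 0.61), Tcf7 (1.99 ± 1.19), Lef1 (2.21 ± 1.23) and Cd6 (2.29 ± 1.36) lay lower. With the 4 type 1 transplanted MDM libraries left out, the difference became -0.84 for Cd4, 0.32 for Cd5, 0.33 for Lef1 and 0.35 for Tcf7. Without the type 2 spontaneous MDM library, which leaves the type 1 contrast alone, it was 3.54, 3.12, 4.08 and 3.63 in that order. Of 73 other T cell genes 5 rose and 1 fell, where 7.06% of all tested genes were called, 3.65% higher and 3.41% lower, and the median of the 73 was 2.26 against 0.02 over all genes. The risers, chosen after their values were seen, were Themis (5.86 ± 1.33, adjusted p = 0.011) and Zap70 (3.00 ± 0.86, 0.041) of receptor signalling, the factors Ikzf2 (4.12 ± 0.56, 0.00026) and Satb1 (2.31 ± 0.53, 0.011), and S1pr1 (1.20 ± 0.33, 0.035), and Havcr2 fell by 1.67 on the log2 scale (± 0.33, 0.0041). S1pr1 was at -0.89 without type 1 transplanted MDM (adjusted p = 0.70), and the call of Zap70 was lost in 11 of 31 alternatives, with 2.07 (0.19) without type 2 transplanted MDM 1 and 1.75 (0.84) without type 1 transplanted MDM. The 6 calls became 30 without type 2 spontaneous MDM 3, 23 without type 2 transplanted MDM 3, 3 without type 2 transplanted MDM 1, 12 and 13 without type 1 transplanted microglia 2 and 4, and 1 without all type 1 transplanted MDM. Microglia markers moved the other way: 3 of 6 fell and their sum was 69805 to 159678 in spontaneous and 6359 to 161470 in transplanted MDM. NK markers rose in 3 of 10 and B cell markers in 4 of 8, and the part of these cells was not tested.

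Within transplanted MDM the members averaged lower in the 2 type 2 than in the 4 type 1 libraries, described here without a test. The log2 differences of type 2 minus type 1 were -2.78 ± 0.81 (Icos), -3.87 ± 1.3 (Cd3g), -4.15 ± 1.21 (Cd3d), -4.27 ± 1.42 (Lef1) and -4.38 ± 1.57 (Cd6). They were -4.64 ± 0.98 (Bcl11b), -4.65 ± 1.37 (Cd3e), -4.73 ± 1.38 (Cd4), -4.96 ± 0.70 (Cd5) and -5.11 ± 1.37 (Tcf7), against a median of -0.03 over all genes. This comparison shares its 6 libraries with the one by model. Of the other T cell genes 16 fell and 1 rose, where 5.91% of all genes were called, 2.96% in each direction. S1pr1 (-3.23 ± 0.38, adjusted p = 0.00016), Pdcd1 (-3.15 ± 0.40, 0.00036), Cd40lg (-6.25 ± 1.00, 0.0019), Lat (-4.50 ± 0.91, 0.0084), Foxp3 (-6.99 ± 1.45, 0.0093) and Zap70 (-4.26 ± 0.99, 0.017) were among those that fell, all chosen after their values were seen. Foxp3 was at 3738 to 6644 in type 1 and at 624.5 and 1.75 in type 2 transplanted MDM. Ubash3a also fell (-4.35 ± 0.97, 0.013), and Havcr2 rose (1.5 ± 0.38, 0.026). The 17 calls became 3 without type 2 transplanted MDM 3 and 11 without type 1 transplanted MDM 3. The 10 NK markers lay between -0.89 and 0.30 here, with a median of -0.54. B cell markers lay between -6.08 and -1.41 (median -2.96, 2 of 8 called lower), plasmacytoid dendritic cell markers had a median of -2.77 (2 of 5 called lower) and those of type 2 innate lymphoid cells one of -3.44 (1 of 3 tested). The median of the 73 T cell genes was -2.42. Microglia markers rose in 4 of 6, and the part of these cells was not tested.

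Among microglia, members were higher in transplanted than in spontaneous tumours by up to 4.38 ± 0.87 (Cd3g) on the log2 scale, with Cd5 (-0.26 ± 0.47) the only one on the other side. Cd3d was higher by 3.73 ± 0.81, Cd6 by 3.52 ± 1.05, Tcf7 by 3.37 ± 0.91 and Cd3e by 3.23 ± 0.91. Lef1 (2.36 ± 0.95), Bcl11b (2.24 ± 0.65), Cd4 (1.69 ± 0.92) and Icos (1.19 ± 0.54) followed. These are differences between low levels: the CD3 sum averaged 383.9 ± 487.8 (SD, n = 6) in transplanted and 18.4 ± 17.5 (n = 6) in spontaneous microglia. Of the other T cell genes 13 rose and 1 fell, where 1.84% of all genes were called, 1.0% higher and 0.836% lower. Sh2d2a was at 169.6 ± 256.9 in transplanted and 1.87 ± 4.58 in spontaneous microglia (5.70 ± 0.77, adjusted p = 0.00077). Il2rb (4.95 ± 0.95, 0.012) and Cd8a (4.22 ± 0.81, 0.012) rose too, as did Cd2 (4.82 ± 0.80, 0.0034) and Lck (3.43 ± 0.81, 0.036), which were chosen after their values were seen. The call of Lck was lost in 15 of 31 alternatives, with 2.2 without type 1 transplanted microglia 1 and 2 (adjusted p = 0.23). Pdcd1 fell, at 2329 ± 1791 in transplanted against 5653 ± 1420.5 in spontaneous microglia (-1.58 ± 0.27, adjusted p = 0.0042). NK markers rose in 2 of 10 in the same comparison, and their part in these genes was not tested. Without type 1 transplanted microglia 1 and 2 the 14 calls became 3. They became 9 without either of those 2 libraries alone, without type 2 spontaneous microglia 1, or without type 1 transplanted MDM 2, 3 or 4, became 8 without type 2 transplanted microglia 2 and 22 without type 2 spontaneous microglia 3.

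Tumour type left smaller differences in microglia, from -1.99 ± 0.95 (Lef1) to 0.19 ± 1.05 (Cd6) on the log2 scale for type 2 minus type 1. Lef1 was at 0 to 161.9 in the 6 type 1 libraries and at 0 to 18.3 in the 6 type 2 libraries, which overlapped. Id3 was the 1 of 73 other T cell genes that passed, and it fell by 2.25 on the log2 scale (± 0.47, adjusted p = 0.037), where 0.47% of all genes were called, 0.424% lower and 0.0465% higher. That call was lost in 21 of 31 alternatives, among them leaving out any of 10 microglia libraries (adjusted p = 0.057 to 0.11), and voom (0.43). Its level was 63.7 ± 43.3 in type 1 spontaneous and 65.7 ± 23.3 in type 1 transplanted microglia, against 11.9 ± 1.81 and 11.1 ± 4.24 in the type 2 classes (SD, n = 3 each). Glial progenitor markers fell in 4 of 6 in the same comparison, and their part in the Id3 difference was not tested.

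Whether the effect of the model differed between MDM and microglia was read from the interaction. For the CD3 genes it was -0.32 ± 1.33 (Cd3d), 0.39 ± 1.5 (Cd3e) and -0.56 ± 1.43 (Cd3g), and for Cd4, Cd6, Tcf7 and Lef1 it lay between -1.38 and -0.15. Cd5 (1.98 ± 0.77), Icos (2.09 ± 0.88) and Bcl11b (2.40 ± 1.07) were the members whose model effect differed most between cell types, given without a test. The Bcl11b value ran from 1.03 to 3.77 over the alternatives, and its type 2 spontaneous MDM level rested on 2 reads. Among the other T cell genes 2 of 73 passed, Ikzf2 and Pdcd1, where 2.24% of all genes were called, 0.976% higher and 1.26% lower.

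Levels most like the CD3 sum over all libraries belonged to other T cell genes, among the genes ranked. Predicted and unnamed genes, receptor and immunoglobulin segments, and genes with no group mean of at least 50 were left out of the ranking. Outside the members, Cd8a and Cd8b1 came first (Pearson r = 0.98 for each over 21 libraries, 0.991 and 0.993 over the 9 MDM libraries). Next came the adaptor Lat (0.961), the kinase Lck (0.960), the checkpoint receptor Ctla4 (0.959), Cd27 (0.957), Cd2 (0.954) and the folate receptor Izumo1r (0.953). Among members that are not part of the sum, Cd6 (0.976) was closest and Cd5 (0.726) and Icos (0.827) least close over 21 libraries. Within MDM alone those 2 reached 0.942 and 0.959, while Lef1 was lowest at 0.831. The coefficients describe log2 levels that share libraries and the contrast between cell types, so no test is attached to them.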

How the data were processed

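RNA of sorted cells was extracted with TRIzol and chloroform and a miRNeasy Micro kit, and libraries were made with SMART-Seq v4, per the labels' protocols. The submitters' processing notes name STAR 2.7.8a, mm10 and DESeq2, and the annotation and counting are not given in the sources used here. The deposited table holds log2-scale values that the authors made with a variance-stabilising transform, as read from its values, with a floor of 4.22. Its inverse gave normalised counts, and 100.0% of values came out as whole reads within 0.0001.

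The 10 members and the gene lists were chosen with earlier results of these data known. The main test was limma-trend (limma 3.58.1, R 4.3.3) on log2(normalised count + 1) with 8 group means, over the 17216 genes with at least 10 normalised counts in at least 3 libraries, and Benjamini-Hochberg adjustment at 0.05. Averages over tumour classes weighted classes equally. The tests were tried on simulated data with known changes. Up to 4 genes of each list with the smallest p in MDM against microglia could be named, with the 8 genes most like the CD3 sum. Others are marked as chosen after their values were seen, as were Lcp2, Ikzf2 and S1pr1. Single values of some listed genes are not reported here. A permutation test planned for ratios to the CD3 sum is not given, since its denominator is made of members. Lists of markers of other cells were summed per library. Alternatives changed the pseudocount, filter, scaling, test and block, and left out libraries. Labels give no batch. Tables and plots used Python 3.11.15, pandas 2.3.3, scipy 1.17.1 and matplotlib 3.10.9.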

Additional observations from a re-analysis of the deposited data

Results flagged for a closer look

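For 2 of 73 tested T cell genes outside the members the effect of the model differed between cell types by the interaction test (limma-trend, Benjamini-Hochberg). Of all tested genes 2.24% were called, a share close to that of the T cell genes. Ikzf2, which encodes the Ikaros family factor Helios, was at 733.4 ± 589.1 normalised counts (SD, n = 6) in transplanted and 109.4 ± 101.2 (n = 3) in spontaneous MDM, and at 146.9 ± 55.7 and 74.2 ± 54.7 (n = 6 each) in microglia. Its interaction was 3.00 ± 0.71 (SE) on the log2 scale (adjusted p = 0.033). That call was lost in 15 of 31 alternatives, and the value was 0.95 without the type 2 spontaneous MDM library (adjusted p = 0.59). Pdcd1 was at 5136 ± 3911 in transplanted and 1881 ± 751.0 in spontaneous MDM, and at 2329 ± 1791 and 5653 ± 1420.5 in microglia. Its interaction was 2.07 ± 0.44 (adjusted p = 0.019). That call was lost in 2 of 31 alternatives, among them the one without type 1 transplanted MDM. The transplanted MDM mean pools both tumour types, and Pdcd1 was lower in type 2 than in type 1 transplanted MDM, as given above. In the 4 type 1 transplanted MDM libraries 15 levels were examined for a library far from the others. The gap stayed under Dixon's critical value of 0.829 in each. With 4 libraries only a very wide gap can pass that value, so no conclusion is drawn from it.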

How the results depend on the processing

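Counts below are genes called over the whole table, or of the 73 other T cell genes. MDM against microglia gave 7356 calls (69 of the T cell genes), transplanted against spontaneous MDM 1215 (6), type 2 against type 1 transplanted MDM 1018 (17), transplanted against spontaneous microglia 317 (14), type 2 against type 1 microglia 81 (1) and the interaction 385 (2). A pair of settings was chosen after seeing the data. Without type 1 transplanted MDM, MDM against microglia gave 4829, the model in MDM 158 (1), the model in microglia 106 (5), tumour type in microglia 36 (0) and the interaction 23 (0), S1pr1 by model in MDM was at -0.89 (adjusted p = 0.70), and tumour type in transplanted MDM could not be computed. Without type 1 transplanted microglia 1 and 2, the model in MDM gave 14 T cell genes, the model in microglia 71 (3), tumour type in microglia 0 (0) and the interaction 180. For the T cell genes by model in MDM, pseudocount 8 gave 30, rescaling to 1 total 16, limma-trend fitted to the values as deposited 41 and voom with recovered reads 29. By tumour type in transplanted MDM pseudocount 8 gave 31, the deposited values 37 and voom 48. By model in microglia pseudocount 8 gave 7, no filter 9 (169 over all genes), the deposited values 6 and voom 2 (196 over all genes). By tumour type in microglia pseudocount 8, no filter, a filter at 50 (32 over all genes), the deposited values and voom gave 0, and for the interaction pseudocount 8 and voom gave 1. The cause of these shifts was not tested.

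Leaving out 1 library at a time gave 6644 to 7567 calls in MDM against microglia (68 to 70 T cell genes), 775 to 2363 (3 to 30) by model in MDM, 79 to 2024 (3 to 24) by tumour type in transplanted MDM, 111 to 1535 (8 to 22) by model in microglia, 34 to 124 (0 to 2) by tumour type in microglia and 214 to 924 (0 to 5) for the interaction. Leaving out the type 2 spontaneous MDM library removes its group. Composition ratios ranged from -2.14 to -0.42 (Cd4), -0.35 to -0.02 (CD8), -0.63 to 0.83 (Foxp3), -2.40 to 1.01 (NK) and -1.53 to 1.54 (B cells), and the Foxp3 and B cell ratios were also reversed at 0.03 and 0.06.

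Rescaling to 1 total put the all-gene median at 0.29, 0.32, -0.29, 0.17, 0.09 and 0.17 in the order above, and the calls higher and lower from 3952 and 3404 to 5229 and 2535 in MDM against microglia (3382 and 4071 after quantile normalization), from 628 and 587 to 1098 and 283 by model in MDM, from 509 and 509 to 322 and 775 by tumour type in transplanted MDM, from 173 and 144 to 171 and 93 by model in microglia and from 168 and 217 to 179 and 87 for the interaction. Havcr2 was then no longer called by tumour type.

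Tumour numbers were not taken as a pairing in the main test, and the labels do not state that libraries of 1 number come from 1 tumour. The deviations of same-numbered libraries correlated at 0.04 to 0.24, over 0.1 in 2 of 7 numbered pairs. Such correlations cannot settle whether the libraries are paired. With the replicate block as a random term (consensus correlation 0.14) the calls were 7815 (70), 1250 (8), 1027 (18), 316 (14), 81 (1) and 512 (2), and as a fixed term over 8 pairs MDM against microglia gave 6728 (70).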
